A study of Mus musculus with 8 samples.

Results

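The comparison described here was that of infarcted with sham-operated mouse hearts, with the genotype labels pooled. Its members were the gene-level count columns of all 8 of the 8 RNA-seq libraries of the series, 4 from hearts taken 42 days after myocardial infarction (MI) and 4 from sham-operated hearts, and the genotype label entered the model as a covariate. By the labels and the study's methods, the fl/fl libraries are from Piezo1 fl/fl mice, with loxP-flanked Piezo1 alleles and no Cre transgene, given as WT in a further label, and the CKO libraries from Piezo1 fl/fl mice with the Myh6-Cre transgene, although the level of a transgene sequence went against the label in 3 libraries, as given below. In that transgene the cardiomyocyte-restricted Myh6 promoter drives a Cre recombinase fused to a mutated estrogen receptor. Piezo1 encodes a stretch-activated cation channel. By the study's methods, tamoxifen was given at an age of 4 weeks (75 mg/kg/day for 5 days) to delete Piezo1 in cardiomyocytes, and surgery followed at 8 weeks, either a lasting ligature on the left anterior descending artery of the heart or the same operation without it. Each label held 2 sham libraries (fl/fl-Sham and CKO-Sham) and 2 infarcted ones (fl/fl-MI and CKO-MI). The labels name the tissue only as myocardium, so whether scar, border or remote tissue was taken is not known, and they do not say that every library came from a separate mouse, so p-values measure the spread between these libraries. The day of harvest is given for the MI libraries alone.

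After an infarct the muscle supplied by the ligated artery dies and is replaced by a collagen scar that fibroblasts lay down, while the surviving cardiomyocytes carry a higher wall stress. Those cells return to parts of the fetal gene program, such as the natriuretic peptides, and lower the machinery of oxidative energy supply, and capillaries become sparser relative to the tissue they feed. TGF-beta, Wnt and mechanical signals drive the scar program, and inflammatory cells that are abundant in the first days have largely left by several weeks.

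Libraries were checked against their labels before any result was read. Esr1, whose coding sequence is part of the Cre fusion, measured 8.36, 6.41, 5.52 and 7.6 CPM (counts scaled to a common library total with TMM factors) in the sham and 7.75, 331, 707 and 402 CPM in the MI libraries, each time in the order fl/fl replicate 1, fl/fl replicate 2, CKO replicate 1 and CKO replicate 2. All values per library below follow this order. The high levels stood in 3 of the 4 MI libraries, among them fl/fl-MI 2, and in none of the sham libraries, so Esr1 went against the label in fl/fl-MI 2 and in both libraries labelled CKO-Sham. Piezo1 measured 72.2, 82, 76.7 and 88.3 CPM in the sham and 53.5, 64.8, 56.3 and 64.6 CPM in the MI libraries and did not separate the labels. It was called lower after MI (log2 fold change -0.42 ± 0.11, adjusted p = 0.0205), but its value was 0.14 when libraries were scaled by library size alone. A whole-tissue count includes the Piezo1 of every cell type and all exons, so it is a limited check of a deletion in cardiomyocytes. Piezo2 was below the filter on low values. Since a high Esr1 level moved with surgery, infarction and the transgene cannot be fully told apart. In the library labelled fl/fl-MI 1, where Esr1 was at the sham level, 2928 of the 2985 genes called higher after MI (98.1%) lay above every sham library and 2470 of the 2509 called lower (98.4%) lay below every sham library, against 40.2% and 35.6% of all genes tested. These shares include a library that took part in the calls and are a description. Leaving the genotype label out of the model gave 3183 genes called higher and 2665 called lower.

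Total counts divided by 4, the apparent worth of a read pair in these files, lay between 18455437 and 22029393 per library. The mitochondrial genome took 46.42%, 43.11%, 44.67% and 46.41% of all counts in the sham libraries and 19.92%, 22.81%, 24.23% and 21.12% in the MI libraries. The groups did not overlap. The mean share was 45.15% ± 1.59 (SD, n = 4) in sham and 22.02% ± 1.89 (SD, n = 4) in MI, a difference of -23.13 percentage points, and the two-sided exact permutation test gave p = 0.0286, the smallest value that 4 against 4 libraries allow. This shift sets the scale of all other genes. TMM factors were 0.797 to 0.855 in sham and 1.119 to 1.317 in MI, and over all genes tested the log2 fold change had a median of 0.03 with TMM but of 0.59 with library size alone. Values below are on the TMM scale, that is, relative to the bulk of genes. The library labelled fl/fl-MI 2 stood apart, with a median correlation of 0.9276 with the other MI libraries over log2 CPM, where the other 3 had 0.9696 to 0.973. For lists, counts without it stand beside those of all libraries where the number called higher or lower moved by 2 or more.

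A large part of the transcriptome differed between MI and sham libraries. Of 14028 genes tested (33249 in the table), 2985 rose and 2509 fell in edgeR's quasi-likelihood test, called at an adjusted p under 0.05, 39.2% of the genes tested in all, 21.3% higher and 17.9% lower. With a change of at least 2-fold as a further condition, 984 genes (7.01%) were higher and 1050 (7.49%) lower. All 4 MI libraries lay on 1 side of all 4 sham libraries for 5668 genes (40.4%). Of the calls, 54.3% were higher with TMM, against 90.2% with library size alone (7349 higher, 794 lower) and 89.4% with limma on log2(FPKM + 1) (7167 higher, 852 lower), whose median over all genes was 0.41. Library size alone moves the fold changes of all genes upward together, a shift that favors rises. All 2985 genes called higher were called higher again, and of the 2509 called lower 794 (31.6%) were called lower again. Each list below is to be read beside these shares and the median of 0.03. Without the library labelled fl/fl-MI 2 the counts were 3518 higher and 3095 lower, and they held 2871 of the 2985 and 2426 of the 2509. In every one of the 8 fits that left out 1 library, 1812 of the genes called higher (60.7%) and 1636 of those called lower (65.2%) were called again in the same direction. Of the 224 called genes named here, 163 were called in all 8 fits and 31 in at most 4, which is said where they are named.

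**Figure D1:**
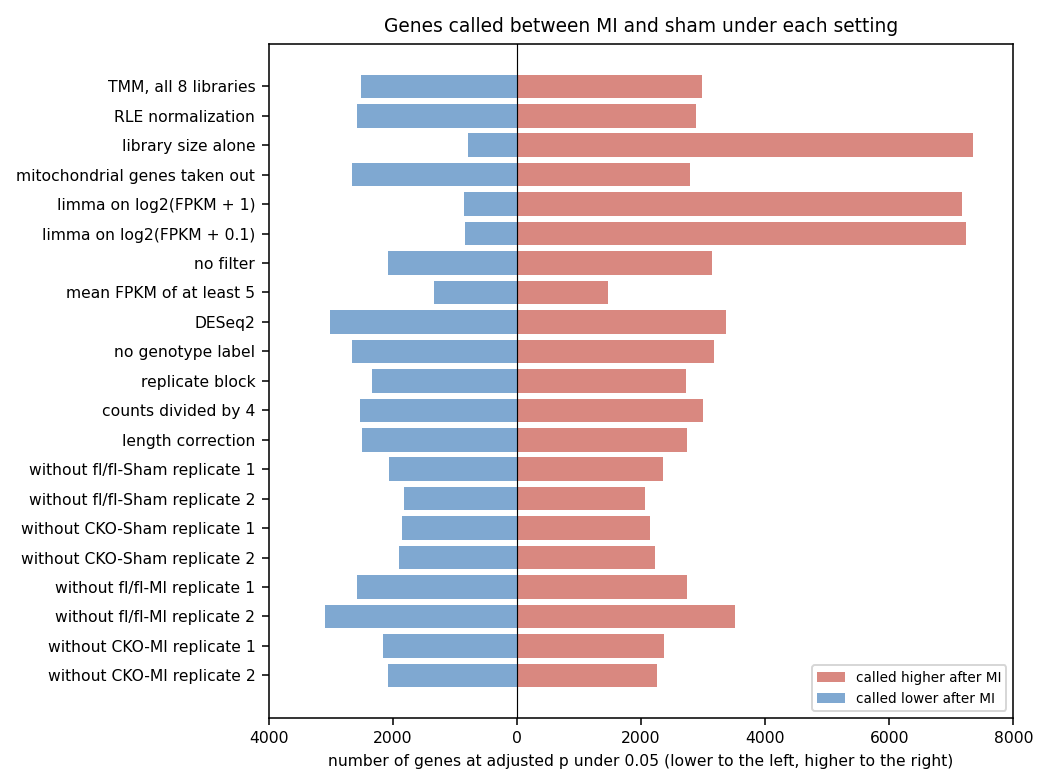
Number of genes called lower (bars to the left) and higher (bars to the right) between MI and sham libraries at an adjusted p under 0.05, under each setting. Library size alone and the FPKM scale give between 7167 and 7349 genes higher and between 794 and 852 lower, and TMM on all 8 libraries gives 2985 and 2509.

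The response was of the same direction in both labels for every called gene. All 5494 called genes had a fold change of the same sign in fl/fl and in CKO, a property that the pooled test favors. Within the libraries labelled fl/fl 2596 genes were called (18.5%; 1410 higher and 1186 lower), and within those labelled CKO 3467 (24.7%; 1800 higher and 1667 lower). By Esr1, both CKO-MI libraries were high and both CKO-Sham libraries low, and of the fl/fl-MI libraries only fl/fl-MI 2 was high. The contrasts thus follow the labels as given and need not compare genotypes. These contrasts share no library. They shared 910 genes called higher, 64.5% of the fl/fl and 50.6% of the CKO list, and 874 called lower, 73.7% and 52.4%, and 2 genes were called in opposite directions. Across the 14028 genes the log2 fold changes of the labels had a Pearson r of 0.67, given as a description since genes are not independent replicates. The test of the difference itself, the interaction of MI and genotype label, called 0 genes (0.0%) with edgeR, 1191 genes at an unadjusted p under 0.05, and 131 genes with DESeq2. Without the library labelled fl/fl-MI 1 edgeR called 751 genes in this test and without fl/fl-MI 2 it called 5, and without any other library it called 0. With 1 library left out, the number of genes called ranged in fl/fl from 119 when fl/fl-Sham 2 was missing to 4180 when fl/fl-MI 1 was, and in CKO from 25 when CKO-Sham 1 was missing to 5793 when fl/fl-MI 2 was, which changes the shared spread, so counts within a label rest on single libraries. The genes with the smallest interaction p were Rps19-ps6, Slc15a2, Gm26920, Ppp1r3a and Mid1ip1, each with an adjusted p of 0.56. Slc15a2, a peptide transporter, measured 45.9, 34.3, 2.21 and 1.76 CPM in sham and 5.97, 7.58, 1.65 and 2.4 CPM in MI libraries, so that its labels differed in the sham hearts already.

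**Figure D2:**
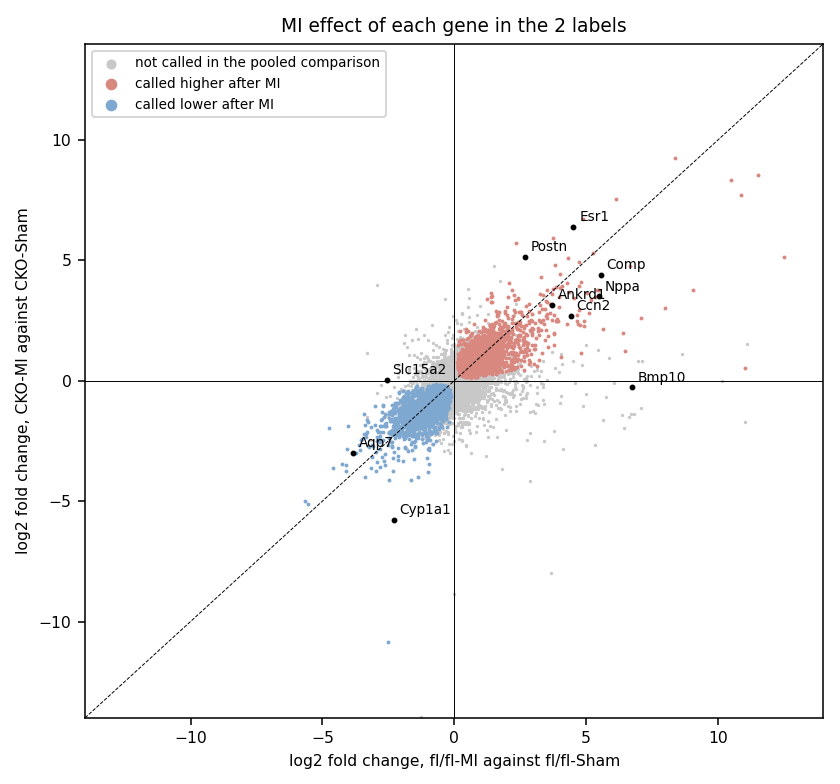
Log2 fold change of each of 14028 genes after MI in the libraries labelled fl/fl (horizontal) and CKO (vertical), colored by the call in the pooled comparison, with a dashed line of equal values. Called genes lie in the upper right and lower left, and Bmp10 lies to the right because it was high in fl/fl-MI 2 alone.

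The largest rises included members of the wall stress list (Nppa), the matrix list (Comp, Fmod and Postn), the Wnt list (Sfrp2 and Dkk3) and the mesothelial list (Lrrn4 and Upk1b). Among genes called higher with a mean FPKM of at least 2 and no overlap of the groups, the 12 largest log2 fold changes ran from 3.83 to 5.28 and included those of Sprr1a, Comp, Cilp2, Ecrg4, Nppa, Fmod, Sfrp2, Lrrn4, Postn, Dkk3 and Upk1b. Sprr1a, a small proline-rich protein of the stressed cardiomyocyte, measured 0.546, 0.823, 0.436 and 0.757 CPM in sham and 51.5, 1.22, 32.4 and 14.5 CPM in MI libraries (log2 fold change 5.28 ± 1.02, adjusted p = 0.00521; ± is the SE throughout). In fl/fl-MI 2 it was barely above sham. Comp, a matrix protein of cartilage and tendon, measured 9.72, 9.54, 10.4 and 30.6 CPM in sham and 847, 62.1, 416 and 458 CPM in MI libraries (log2 fold change 4.98 ± 0.82, adjusted p = 0.00275). Fmod, a proteoglycan that binds collagen fibrils, rose from 2.37–17.9 CPM over the sham libraries to 30–238 CPM over the MI libraries (log2 fold change 4.39 ± 0.89, adjusted p = 0.00658). Sfrp2, a secreted Wnt antagonist, rose from 4.52–9.11 to 17.5–288 CPM (log2 fold change 4.35 ± 0.80, adjusted p = 0.00444). For Comp, Fmod and Sfrp2 the lowest MI value was again that of fl/fl-MI 2. Cilp2, a cartilage matrix protein, had the opposite order, with 31, 75.3, 15.3 and 5.8 CPM in the MI libraries (log2 fold change 4.67 ± 1.11, adjusted p = 0.0123). Ecrg4, which encodes a secreted peptide precursor, rose from 0.191–0.806 to 4.08–22.5 CPM (log2 fold change 4.60 ± 0.74, adjusted p = 0.00248).

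Lrrn4, Upk1b, Upk3b and Msln are genes of the mesothelium, the cell layer that covers the heart. Lrrn4 measured 0.989, 0.317, 0.436 and 0.888 CPM in sham and 17.3, 27.3, 2.82 and 6.44 CPM in MI libraries (log2 fold change 3.96 ± 0.65, adjusted p = 0.00277). Upk1b rose from 0.313–0.806 to 1.05–16.7 CPM (log2 fold change 3.83 ± 0.75, adjusted p = 0.00548), Upk3b from 1.58–2.82 to 6.73–84.5 CPM (log2 fold change 3.71 ± 0.67, adjusted p = 0.00409) and Msln from 0.775–1.2 to 2.41–20.9 CPM (log2 fold change 3.31 ± 0.58, adjusted p = 0.00353). CKO-MI 1 was the lowest MI library for all of them. The remaining markers of the same list, Wt1 and Krt19, were not called, so 4 of 6 epicardial and mesothelial markers rose, and the summed level of the list was 34.8 to 45.3 CPM in sham and 37.2 to 204 CPM in MI libraries. How much covering tissue each sample held, and its part in the result, was not tested.

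The largest falls were in genes of varied function, of which only Timp4 belonged to a list used here. The 12 largest falls by the same rule ran from -4.01 to -2.73 and belonged to Cyp1a1, Clec12b, Vwa3a, Aqp7, Car4, Timp4, Slc26a10, Pde4c, mt-Rnr1, Ifi203-ps, Btnl9 and Slc28a2. Aqp7, a glycerol channel, measured 55.5, 59, 67.1 and 65.2 CPM in sham and 4.48, 3.52, 8.19 and 8.29 CPM in MI libraries (log2 fold change -3.42 ± 0.19, adjusted p = 0.000169). Car4, a membrane carbonic anhydrase of capillaries, measured 79.1, 93.6, 94.4 and 81.1 and 5.59, 7.65, 10.9 and 11.3 CPM (log2 fold change -3.34 ± 0.20, adjusted p = 0.000169). Timp4, the tissue inhibitor of metalloproteinases that is prominent in healthy heart, was even among the sham libraries at 158, 159, 154 and 154 CPM and fell to 14.3, 12.6, 25.3 and 17 CPM (log2 fold change -3.21 ± 0.20, adjusted p = 0.000176). All 3 were far below the lowest sham level in every MI library. Btnl9, a butyrophilin-like gene of endothelium, fell from 271–302 to 21.8–64.5 CPM (log2 fold change -2.77 ± 0.27, adjusted p = 0.000433). Slc28a2, a nucleoside transporter, fell from 119.8–141 to 14.6–26.7 CPM (log2 fold change -2.73 ± 0.13, adjusted p = 0.000115). Pde4c, a cAMP phosphodiesterase, fell from 26.1–36.9 to 2.38–6.89 CPM (log2 fold change -2.95 ± 0.33, adjusted p = 0.000655). Cyp1a1, which the aryl hydrocarbon receptor induces, was unlike the others in that its sham libraries differed by label, at 5.99, 8.02, 46.1 and 52.9 CPM, against 1.43, 1.44, 1.36 and 0.474 CPM in the MI libraries (log2 fold change -4.01 ± 0.79, adjusted p = 0.00569). Slc26a10 (-2.99), Vwa3a (-3.44), Clec12b (-3.70) and the pseudogene Ifi203-ps (-2.82), whose reads may be shared with other members of its family, completed the set on the log2 scale.

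**Figure D3:**
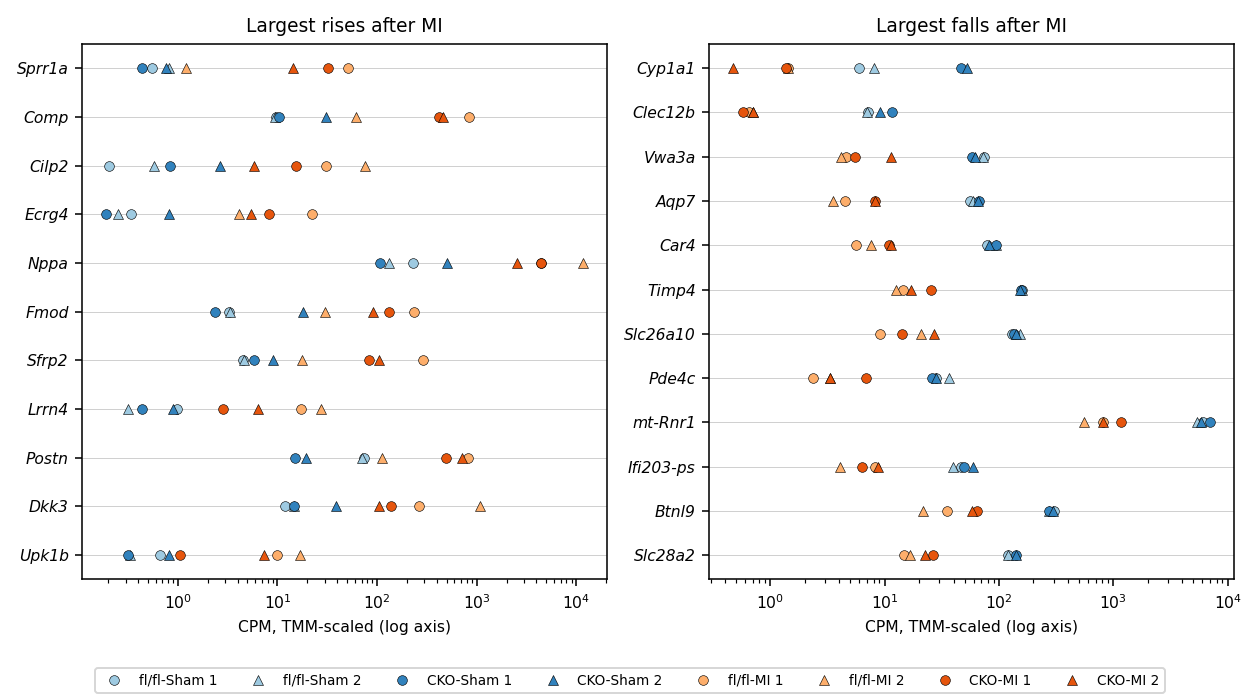
TMM-scaled CPM (log axis) of 11 of the 12 genes with the largest rise (left) and of the 12 with the largest fall (right), 1 symbol per library, blue for sham and orange for MI. No gene has overlapping groups, the falls leave the MI libraries close together, and the rises spread them widely, with the library labelled fl/fl-MI 2 (light orange triangle) lowest for Sprr1a, Comp, Ecrg4, Fmod, Sfrp2 and Postn and highest for Nppa, Cilp2, Lrrn4, Dkk3 and Upk1b.

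Fetal and wall stress genes rose as a group. Of 14 tested members 11 were called higher and 1, Tnnt1, lower, with a median log2 fold change of 2.35 beside 0.03 for all genes. The summed level of the list went from 2450.0 to 4426 CPM in sham to 12920 to 21890 CPM in MI libraries. In fl/fl-MI 2 most of the sum of 16460 CPM was Nppa, at 11746 CPM. That library was the lowest MI library for 11 of the 14 members. Nppa, which encodes atrial natriuretic peptide, measured 228, 133, 106 and 504 CPM in sham and 4400.0, 11746, 4419 and 2520.3 CPM in MI libraries (log2 fold change 4.50 ± 0.72, adjusted p = 0.00259). Its highest value was that of fl/fl-MI 2, and without that library its log2 fold change was 3.97 (adjusted p = 0.000963). Nppb, which encodes B-type natriuretic peptide, measured 24.3, 16.3, 43.1 and 78.5 and 253, 197, 292 and 235 CPM (log2 fold change 2.79 ± 0.35, adjusted p = 0.000949). Ankrd1, a titin-associated stretch sensor that also enters the nucleus, measured 302, 238, 357 and 619 and 4538, 2475, 5181 and 3593 CPM (log2 fold change 3.43 ± 0.31, adjusted p = 0.000369). For these 3 genes the groups were well apart, and CKO-Sham 2 was the highest sham library each time.

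The sequences before the transcription starts of these 3 genes are shown because they rose together and are standard reporters of wall stress in the mouse heart. They are the 250 bases upstream of each start, 5′ to 3′ on the strand of the gene, from RefSeq on GRCm38.p6, with every M-CAT motif (CATTCC on either strand, the element bound by TEAD factors) in capitals. Nppa lies at chr4:148000472-148000721 on the plus strand, Nppb at chr4:147985650-147985899 on the plus strand, and Ankrd1 at chr19:36119845-36120094 on the minus strand.
Nppa: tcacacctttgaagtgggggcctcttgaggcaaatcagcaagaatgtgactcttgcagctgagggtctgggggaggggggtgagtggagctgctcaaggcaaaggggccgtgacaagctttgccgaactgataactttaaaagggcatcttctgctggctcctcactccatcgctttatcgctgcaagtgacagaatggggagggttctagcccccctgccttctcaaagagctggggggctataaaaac
Nppb: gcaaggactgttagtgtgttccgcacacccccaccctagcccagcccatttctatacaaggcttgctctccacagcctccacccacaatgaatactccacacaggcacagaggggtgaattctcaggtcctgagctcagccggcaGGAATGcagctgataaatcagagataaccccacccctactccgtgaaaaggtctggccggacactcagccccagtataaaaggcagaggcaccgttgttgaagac
Ankrd1: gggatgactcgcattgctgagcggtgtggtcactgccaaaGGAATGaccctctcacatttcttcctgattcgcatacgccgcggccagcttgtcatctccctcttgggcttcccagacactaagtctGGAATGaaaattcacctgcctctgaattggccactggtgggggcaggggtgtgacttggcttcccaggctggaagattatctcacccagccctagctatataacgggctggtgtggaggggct
Nppb held 1 M-CAT match, with its first base 105 bases before the start, Ankrd1 held 2, at 210 and 123 bases, and Nppa held 0 in this window. Of 27025 mouse genes with a promoter in the same table, 14.4% (3880) held the motif in the 250 bases of at least 1 promoter, as did 13.9% of the 2253 genes called higher and 13.7% of the 1797 called lower that could be matched. Of the wall stress list 14 genes had a promoter in the table, which leaves out Xirp1 and includes Ankrd2, and 6 held the motif (Nppb, Myh7, Acta1, Ankrd1, Gdf15 and Flnc). Myh7, Gdf15 and Flnc had 2 promoters each and were counted if either held it. The search was chosen after the values were seen, and a match describes letters in this window, not binding.

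Other members of the list with a structural role also rose. Flnc, a filamin of the Z-disc, measured 90.5, 81.7, 55.9 and 83.8 CPM in sham and 385, 267, 653 and 384 CPM in MI libraries (log2 fold change 2.41 ± 0.29, adjusted p = 0.000834). Fhl1, a LIM protein of the stretched sarcomere, measured 75.4, 74.7, 86.3 and 97.4 and 229.6, 154, 294 and 276 CPM (log2 fold change 1.49 ± 0.15, adjusted p = 0.000465). Xirp1 and Xirp2, which bind actin at the intercalated disc, rose by 2.29 and 2.92 on the log2 scale, Gdf15, a secreted stress cytokine, by 3.78, Nmrk2, a nicotinamide riboside kinase, by 2.88, and Actn1, a non-sarcomeric actinin, by 0.65. Myh7, the slow fetal myosin heavy chain, measured 685, 713, 1067 and 1487 and 3954, 607, 5519.5 and 2927 CPM (log2 fold change 1.72 ± 0.51, adjusted p = 0.0292). Its groups overlapped because the library labelled fl/fl-MI 2 lay below every sham library, and without it the value was 2.04 (adjusted p = 0.000836). Myh7 was called in 2 of the 8 fits that left out 1 library. Acta1, the skeletal muscle actin of the fetal heart, spread widely in both groups (458, 273, 150.0 and 566 CPM in sham, 254, 18.8, 796 and 632 CPM in MI) and was not called (log2 fold change -0.21 ± 0.88, adjusted p = 0.864). Csrp3 was not called either, and Ankrd2 was below the filter. Tnnt1, the slow skeletal troponin T, fell from 7.99–8.3 to 2.36–5.58 CPM (log2 fold change -1.11 ± 0.28, adjusted p = 0.0151). Actn1 was called in 2 of the 8 fits with 1 library left out. Without fl/fl-MI 2 the list again had 11 members higher and 1 lower.

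Matrix genes were the second broad group of rises. Of 18 tested collagens 14 were called higher and 0 lower (median 1.44), of 26 matrix glycoproteins and proteoglycans 20 were higher and 0 lower (median 1.75), and of 22 genes of crosslinking and proteolysis 15 were higher and 1 lower (median 1.45). Col1a1, the alpha 1 chain of type I collagen, measured 137, 135, 157 and 201 CPM in sham and 682, 222, 377 and 754 CPM in MI libraries (log2 fold change 1.70 ± 0.36, adjusted p = 0.00743). Col3a1, of type III collagen, measured 199, 222, 268 and 288 and 1802, 430.1, 738 and 1712 CPM (log2 fold change 2.27 ± 0.45, adjusted p = 0.00558). Col1a2 measured 146, 143, 139 and 176 and 948, 312, 493 and 784 CPM (log2 fold change 2.07 ± 0.33, adjusted p = 0.00254). The lowest MI value of all 3 was that of the library labelled fl/fl-MI 2, which was the lowest MI library for 16 of the 18 collagens, and without it 16 were called higher. The summed collagen level overlapped, 2081 to 2502 CPM in sham and 2319 to 7201 CPM in MI libraries, with fl/fl-MI 2 at 2319 CPM. The network-forming Col8a2 (4.32) and Col8a1 (2.73) and the fibril-associated Col12a1 (2.63) and Col14a1 (2.47) had the largest rises on the log2 scale, with overlapping groups for Col8a2, Col8a1 and Col12a1. The 4 collagens that were not called were the basement membrane chains Col4a1, Col4a2 and Col18a1 and the type V chain Col5a3, whose log2 fold changes ran from -1.0 to 0.30.

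Postn, a fibroblast protein of the healing infarct, measured 74.6, 70.2, 14.9 and 19.2 CPM in sham and 813, 111, 492 and 718 CPM in MI libraries (log2 fold change 3.91 ± 0.77, adjusted p = 0.00567), and the sham libraries labelled CKO were lower than those labelled fl/fl. Thbs1, thrombospondin 1, measured 32.1, 29.7, 38.4 and 71.5 and 392, 330.2, 274 and 129.7 CPM (log2 fold change 2.71 ± 0.43, adjusted p = 0.00241). Fn1, fibronectin, measured 112, 115, 89.9 and 131 and 593, 203, 292 and 368 CPM (log2 fold change 1.69 ± 0.31, adjusted p = 0.00445). All 3 had their groups apart. Ltbp2, which binds microfibrils (3.94), Thbs4 (3.74), Cilp, a fibroblast matrix protein (3.41), and Cthrc1, a marker of activated fibroblasts (3.22), rose by more on the log2 scale, with overlapping groups because fl/fl-MI 2 stayed at the sham level. The smallest changes among the called members were those of Spp1, osteopontin (0.70), Dcn, decorin (0.74), and Thbs2 (0.76), called in 2, 3 and 3 of the 8 fits with 1 library left out. Thbs3, a thrombospondin, rose by 1.13 and Lum, lumican, by 1.10. Not called were Tnc, Sparc, Fbn1, Eln, Fbln2 and Aspn, and without fl/fl-MI 2, which was the lowest MI library for 23 of the 26 members, 25 of the 26 were called higher.

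Among the enzymes, Lox, which crosslinks collagen (2.58), its relatives Loxl1 (1.57), Loxl2 (1.38) and Loxl3 (2.02) and the prolyl hydroxylases P4ha1 (1.52) and P4ha3 (2.67) rose on the log2 scale. Adamts2, which trims procollagen, rose from 29.4–33.1 to 65.3–188 CPM (log2 fold change 1.99 ± 0.32, adjusted p = 0.00264). Inhibitors of proteolysis moved in opposite directions. Timp1 measured 3.04, 3.72, 5.63 and 4.8 CPM in sham and 28.8, 9.11, 16.8 and 58.3 CPM in MI libraries (log2 fold change 2.67 ± 0.47, adjusted p = 0.00359), Timp2 rose from 77–96 to 226–488 CPM (log2 fold change 1.81 ± 0.22, adjusted p = 0.000848), Timp3 was not called, and Timp4 fell as described above. The gelatinase Mmp2 (1.87), the stromelysin Mmp3 (2.23) and the membrane-type Mmp14 (0.89, called in 4 of 8 such fits) rose. Mmp9, a gelatinase of inflammatory cells, measured 1.43, 1.61, 2.87 and 3.68 and 2.58, 7.75, 3.71 and 5.38 CPM and was not called (log2 fold change 1.11 ± 0.42, adjusted p = 0.0668).

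Signaling genes of the TGF-beta, BMP and Wnt pathways, antagonists among them, rose in the same comparison. Whether they drove the matrix genes was not tested. Of 21 tested TGF-beta and BMP genes 13 were called higher and 1, Bmp6, lower (median 1.26), and without fl/fl-MI 2 15 were higher and 1 lower. Among the ligands Tgfb2 (2.04), Tgfb3 (1.87), Inhba (1.55), Inhbb (2.0) and Bmp2 (1.30) rose on the log2 scale, Tgfb1 was not called, and Bmp6 fell from 61.1–76.2 to 33.8–43.6 CPM (log2 fold change -0.75 ± 0.12, adjusted p = 0.00281). Both signaling receptors rose, Tgfbr1 by 1.26 and Tgfbr2 by 0.69, with 70.3, 79.8, 73 and 72.7 CPM in sham and 135, 98.1, 92.4 and 153 CPM in MI libraries for Tgfbr2. Of the targets, Ccn2, connective tissue growth factor, measured 46.1, 43.4, 72.9 and 97.8 and 1076, 853, 761 and 348 CPM (log2 fold change 3.56 ± 0.44, adjusted p = 0.000873). It was many times above sham in every MI library. The activin antagonist Fst rose from 0.658–1.06 to 4.06–10.1 CPM (log2 fold change 2.73 ± 0.29, adjusted p = 0.000606), and its relatives Fstl1 and Fstl3 by 1.84 and 1.96.

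Of 15 tested Wnt pathway genes 9 were called higher and 0 lower (median 0.96). They held ligands (Wnt5a, Wnt9a and Wnt11, 0.66 to 1.62 on the log2 scale), the Frizzled receptors Fzd1 (log2 fold change 1.86 ± 0.22, adjusted p = 0.000799), Fzd2 (1.84) and Fzd7 (1.37), and the secreted modulators Sfrp1 (2.53), Sfrp2 and Dkk3. Axin2, a transcriptional target of the canonical branch, was not called. Dkk3 is also a marker of atrial tissue. It measured 12, 14.7, 14.8 and 38.9 CPM in sham and 264, 1081, 137 and 105 CPM in MI libraries (log2 fold change 3.91 ± 0.91, adjusted p = 0.0113), highest in fl/fl-MI 2.

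Contractile genes of myofibroblasts and smooth muscle did not rise as a group. Of 16 members 2 were called higher and 3 lower (median 0.06), and with library size alone 4 were higher and 0 lower. Acta2, smooth muscle actin, measured 65.8, 102, 103 and 126 CPM in sham and 123, 181, 80 and 73.6 CPM in MI libraries and was not called (log2 fold change 0.14 ± 0.32, adjusted p = 0.751). The non-muscle myosin Myh10 (log2 fold change 1.10 ± 0.16, adjusted p = 0.00155) and the calponin Cnn2 (log2 fold change 0.43 ± 0.08, adjusted p = 0.00464) rose. Myh11, the smooth muscle myosin (-0.92, called in 4 of 8 fits with 1 library left out), Mylk, its light chain kinase (-0.81), and Actg2 (-0.59) fell on the log2 scale. The fibroblast markers rose, 7 of 10 called higher and 0 lower (median 0.72), with a summed level of 3183 to 3470.0 CPM in sham and 4699 to 8357 CPM in MI libraries. Pdgfra (0.69, called in 2 of 8 fits with 1 library left out) and Dpt (log2 fold change 1.11 ± 0.22, adjusted p = 0.00567), which mark resident fibroblasts, were among them, and Tcf21, Ddr2 and Thy1 were not called. The markers Col1a1, Col1a2, Dcn and Lum, also called higher, were counted in the collagen and matrix lists as well, so these counts are not separate. In bulk tissue a change in the number of cells of a type and a change in RNA per cell cannot be told apart, here and for every group that follows.

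Endothelial genes fell. All 10 endothelial markers were called lower (median -1.54), and their summed level was 2967 to 3756 CPM in sham and 937 to 1286 CPM in MI libraries. With library size alone the median was -1.0 and 8 were called lower. Egfl7, a matrix protein that endothelium secretes, measured 213, 239, 304 and 256 CPM in sham and 64.2, 59.1, 70.2 and 57 CPM in MI libraries (log2 fold change -2.01 ± 0.13, adjusted p = 0.000195). Fabp4, the fatty acid binding protein of capillaries and fat, fell from 835–1416 to 269.7–379 CPM (log2 fold change -1.88 ± 0.17, adjusted p = 0.000383), while the adipocyte markers Adipoq, Plin1, Cfd, Lep, Cidec and Retn were not called. Esam, an adhesion molecule of endothelial junctions, fell from 138–147 to 36.1–56.4 CPM (log2 fold change -1.59 ± 0.16, adjusted p = 0.000488). Pecam1 (-0.88) and Emcn (-0.91, called in 2 of 8 fits with 1 library left out) had the smallest falls of the list.

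Among 21 endothelial receptors and angiogenic factors 11 were called lower and 1, the lymphatic growth factor Vegfd, higher (median -0.62, or -0.04 with library size alone, where 3 were higher and 6 lower). Of the ligands Vegfb (-0.82) and Pgf (-0.65, called in 4 of 8 fits with 1 library left out) fell and Vegfa was not called. Vegfd rose from 2.22–3.54 to 4.61–13.8 CPM (log2 fold change 1.77 ± 0.41, adjusted p = 0.011). Kdr, the main signaling receptor for VEGF, measured 372, 332, 335 and 361 and 96.8, 109.9, 175 and 129 CPM (log2 fold change -1.48 ± 0.17, adjusted p = 0.000694). Flt1, its decoy, fell by a like amount (log2 fold change -1.38 ± 0.16, adjusted p = 0.000734), as did the angiopoietin receptor family member Tie1 (log2 fold change -1.65 ± 0.15, adjusted p = 0.000378). The Notch ligand Dll4, of arterial and tip cells, fell from 45.5–62.7 to 11.3–18.4 CPM (log2 fold change -1.88 ± 0.15, adjusted p = 0.000278). Of 8 markers of pericytes and smooth muscle 3 were called lower and 0 higher, with a median of -0.36 that was 0.20 with library size alone, where 1 was higher and 2 lower. The pericyte genes Rgs5 (log2 fold change -1.69 ± 0.21, adjusted p = 0.000938) and Kcnj8 (log2 fold change -1.37 ± 0.16, adjusted p = 0.000702) fell, and Pdgfrb, Cspg4, Notch3 and Mcam were not called.

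Transcripts of the respiratory chain fell, those of the mitochondrial genome most. All 13 mitochondrially encoded proteins were called lower (median -1.61, or -1.07 with library size alone). Mt-Co3, a subunit of cytochrome c oxidase, measured 34631, 33007, 35019 and 32983 CPM in sham and 7733, 10091, 10339 and 7631 CPM in MI libraries (log2 fold change -1.92 ± 0.22, adjusted p = 0.000712). The values of mt-Nd3, a subunit of complex I, were 929, 1026, 1253 and 1016 and 206, 255, 279 and 199 CPM (log2 fold change -2.17 ± 0.17, adjusted p = 0.000252). The ribosomal RNA mt-Rnr1 measured 6082, 5438, 7016 and 5788 and 807, 551, 1166 and 813 CPM (log2 fold change -2.89 ± 0.22, adjusted p = 0.000256). The groups were apart for all of these. Of 40 nuclear genes of the respiratory chain 24 were called lower and 2, Ndufs1 and Sdha, higher (median -0.79, or -0.25 with library size alone, where 7 were higher and 14 lower). Without fl/fl-MI 2 1 was higher and 26 were lower. Ndufa5 of complex I fell from 55.1–105 to 19.6–29.7 CPM (log2 fold change -1.69 ± 0.22, adjusted p = 0.00112) and Cox5b of complex IV from 161–253 to 59.7–86.5 CPM (log2 fold change -1.54 ± 0.20, adjusted p = 0.001). Ndufs1, the largest subunit of complex I, rose (log2 fold change 1.08 ± 0.23, adjusted p = 0.00778), and Sdha of complex II was called higher with overlapping groups (log2 fold change 0.72 ± 0.22, adjusted p = 0.034) and not without fl/fl-MI 2 (0.57, adjusted p = 0.0725), and was called in 1 of the 8 fits with 1 library left out.

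Transcript length moved with these values. The nuclear respiratory chain genes had a median transcript length of 1052 bases. Across 12250 protein-coding genes the log2 fold change had a Spearman rho of 0.21 with length. In the first of 10 equal bins by length (60 to 1248 bases) the median was -0.35, with 32.8% of genes called lower and 6.61% higher, and in the last (6362 to 103825 bases) it was 0.28, with 13.6% lower and 36.2% higher. In a fit that took each library's trend with length out, added after the data were seen, the nuclear respiratory chain had a median of -0.52 with 1 member higher and 22 lower. The part of length in the result was not tested further.

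Fuel genes were mixed. Of 33 genes of fatty acid uptake and oxidation 8 were called lower and 3 higher, with a median of -0.15 that was 0.39 with library size alone. The direction of the calls turned with that scaling, to 15 higher and 3 lower, and without fl/fl-MI 2 the TMM scale gave 3 higher and 11 lower. The falls lay in uptake (Cd36 -0.83, Slc27a1 -0.79) and in beta-oxidation and electron transfer (Etfb -1.68, Ech1 -1.26, Eci1 -1.16, Acaa2 -1.13). The enzymes Cpt1b, Acadl, Acadm, Hadha and Hadhb were not called. Slc27a1 and Acaa2 were each called in 2 of the 8 fits with 1 library left out. Among regulators of the same pathway Ppara, Ppargc1a and Pdk4 rose, and Esrra was not called (log2 fold change -0.18 ± 0.14, adjusted p = 0.332). Ppara, the nuclear receptor that induces the pathway, measured 5.12, 4.38, 2.34 and 3.36 CPM in sham and 11, 19.9, 16.7 and 15.9 CPM in MI libraries (log2 fold change 2.11 ± 0.27, adjusted p = 0.000985). Ppargc1a, the coactivator of mitochondrial biogenesis, rose from 24.4–31.1 to 43.6–109.8 CPM (log2 fold change 1.42 ± 0.22, adjusted p = 0.00227). Pdk4, which blocks entry of pyruvate into the citrate cycle, rose from 76–125 to 202–1201 CPM (log2 fold change 2.48 ± 0.45, adjusted p = 0.00397), with its highest value in fl/fl-MI 2.

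Of 15 citrate cycle genes 3 were called higher (among them Ogdh 0.93 and Dld 0.63) and 2 lower (Idh2 -0.79, Suclg1 -0.78), with a median of 0.34. Of 21 genes of glucose uptake and glycolysis 9 were higher and 2 lower (median 0.35). Slc2a1, the insulin-independent glucose transporter, rose from 8.06–10.8 to 19.7–28.4 CPM (log2 fold change 1.41 ± 0.14, adjusted p = 0.000488), Hk1, hexokinase 1, from 91.9–105 to 172–189 CPM (log2 fold change 0.86 ± 0.10, adjusted p = 0.000732), and Slc16a3, a lactate exporter, from 2.42–4.46 to 10.3–12.7 CPM (log2 fold change 1.82 ± 0.21, adjusted p = 0.000746). Slc2a4, the insulin-dependent transporter, was not called, Ldhb fell by 0.66 on the log2 scale, and Gapdh was called lower (-0.52) but had 0.02 with library size alone, and its reads can be shared with pseudogenes. Of 10 energy transfer genes 3 were higher and 3 lower (median 0.24). The creatine kinases Ckm (log2 fold change -1.28 ± 0.26, adjusted p = 0.00702) and Ckmt2 (-0.79) and the nucleotide carrier Slc25a4 (-0.94) fell, while the creatine transporter Slc6a8 (log2 fold change 1.03 ± 0.24, adjusted p = 0.0122), the outer membrane channel Vdac1 (0.77) and the ketone enzyme Oxct1 (0.84) rose. With library size alone the citrate cycle genes had 12 higher and 0 lower, those of glucose uptake and glycolysis 14 and 0, and those of energy transfer 7 and 1. Among the genes of this paragraph, Ckmt2, Dld, Ldhb and Gapdh were called in 4, 3, 3 and 2 of the 8 fits with 1 library left out.

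**Figure D4:**
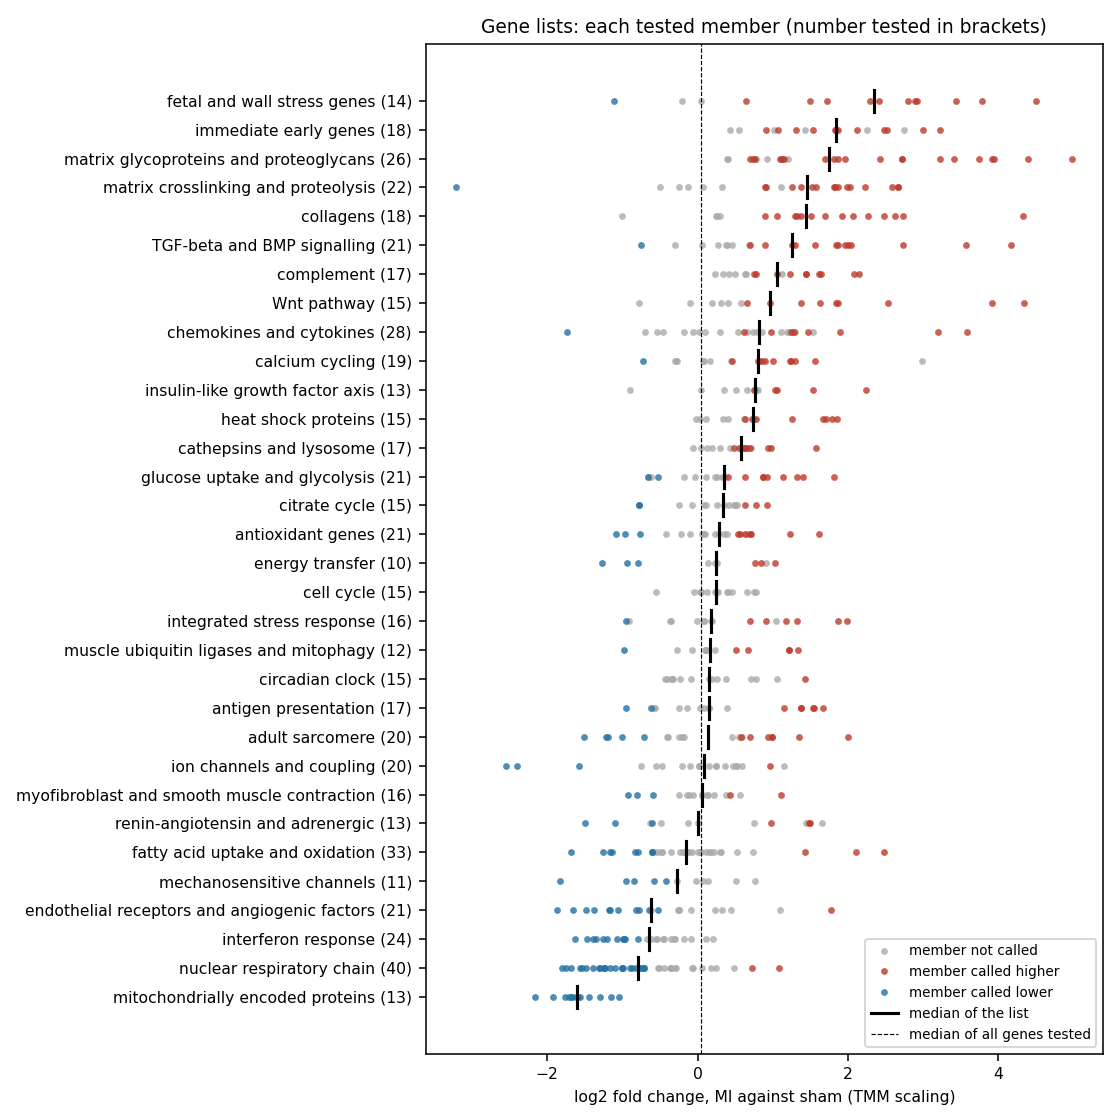
Log2 fold change after MI (TMM scale) of every tested member of 32 gene lists, red where called higher, blue where called lower, gray where not called, with the list median as a black bar and the median of all genes dashed. Wall stress, immediate early and matrix lists lie to the right with medians of 1.44 to 2.35, and interferon, respiratory chain and mitochondrially encoded lists to the left with medians of -0.65 to -1.61.

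Calcium handling genes rose in part, and the calls of Atp2a2 and Ryr2 were lost in most fits with 1 library left out. Of 19 members 9 were called higher and 1, S100a1, lower (median 0.80), and without the library labelled fl/fl-MI 2 the counts were 7 and 2. Slc8a1, the sodium-calcium exchanger, measured 126, 121, 108 and 132 CPM in sham and 300.4, 377, 354 and 408 CPM in MI libraries (log2 fold change 1.56 ± 0.14, adjusted p = 0.000323). Casq2, the calcium buffer of the sarcoplasmic reticulum, rose from 207–326 to 518–841 CPM (log2 fold change 1.24 ± 0.20, adjusted p = 0.00286), Jph2, which holds the dyad together, from 138–159.8 to 257–403 CPM (log2 fold change 1.0 ± 0.17, adjusted p = 0.00312), and Camk2d, the main cardiac calmodulin kinase, from 73.2–80.1 to 109.8–155 CPM (log2 fold change 0.80 ± 0.13, adjusted p = 0.00287). These had the groups apart. Atp2a2, the calcium pump SERCA2, measured 2904, 2990.0, 2051 and 2146 and 2828, 10962, 5783 and 4980.5 CPM (log2 fold change 1.29 ± 0.37, adjusted p = 0.0249). Its groups overlapped, fl/fl-MI 2 was far above the others, and the call was lost without that library (0.83, adjusted p = 0.054). Ryr2, the release channel, measured 532, 545, 339.6 and 388 and 465, 1092, 881 and 853 CPM (log2 fold change 0.89 ± 0.27, adjusted p = 0.0333) and was likewise not called without fl/fl-MI 2 (0.71, adjusted p = 0.0795). Atp2a2 and Ryr2 were each called in 1 of the 8 fits that left out 1 library. S100a1, a calcium sensor that binds both, fell from 171–217 to 99.3–143 CPM (log2 fold change -0.73 ± 0.15, adjusted p = 0.00711), and had -0.34 (adjusted p = 0.0766) in the fit with length taken out. Cacna1c, the L-type calcium channel, was not called (log2 fold change -0.31 ± 0.18, adjusted p = 0.201), nor were Pln, Trdn and Hrc.

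Adult sarcomere genes went both ways, 7 of 20 called higher and 5 lower (median 0.14), or 10 and 2 with library size alone. The falls were in short genes of the thin filament and light chains, Myl2 (log2 fold change -1.22 ± 0.31, adjusted p = 0.0161), Tnni3 (log2 fold change -1.19 ± 0.29, adjusted p = 0.0145), Myl3 (-1.0), Tnnc1 (-0.71) and the titin cap Tcap (-1.5), and with length taken out 2 of these 5 were called lower. The rises were in Lmod2, which elongates thin filaments (log2 fold change 2.0 ± 0.29, adjusted p = 0.00162), Nebl, the cardiac nebulin relative (log2 fold change 1.34 ± 0.12, adjusted p = 0.000396), Actc1, cardiac actin (0.93), the M-band protein Myom2 (0.99), the light chain kinase Mylk3 (0.99, called in 3 of 8 fits with 1 library left out), Actn2 (0.69) and Ldb3 (0.58). Myh6, the adult myosin heavy chain, measured 14084, 14985, 13961 and 13549 CPM in sham and 4976, 18609, 11749 and 7776 CPM in MI libraries and was not called (log2 fold change -0.40 ± 0.38, adjusted p = 0.435). It was above every sham library in fl/fl-MI 2 and below in the other 3 MI libraries, and without fl/fl-MI 2 it was called lower (-0.89, adjusted p = 0.0405). Of the 10 cardiomyocyte markers 3 were called higher and 3 lower, and their summed level, 36270 to 41920 CPM in sham and 22600 to 41220 CPM in MI libraries, overlapped. Their median of -0.38 was 0.16 with library size alone, where 4 were higher and 2 lower.

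Of 20 tested ion channel genes 3 were called lower and 1 higher (median 0.09). Without fl/fl-MI 2 the counts were 6 lower and 1 higher, and with library size alone the lean was the opposite, 7 higher and 2 lower. Kcna5, a repolarizing potassium channel, measured 65.5, 66.4, 67.6 and 71.2 CPM in sham and 11.9, 8.54, 19.9 and 12.1 CPM in MI libraries (log2 fold change -2.40 ± 0.21, adjusted p = 0.000324). Kcnv2, a silent potassium channel subunit, fell from 12.6–28.5 to 1.77–5.46 CPM (log2 fold change -2.55 ± 0.34, adjusted p = 0.00124), and Kcne1, an accessory subunit at low level, was called with overlapping groups (log2 fold change -1.58 ± 0.41, adjusted p = 0.0176). Kcnd2, a transient outward channel, and Gja1, connexin 43, were not called (log2 fold change 0.53 ± 0.53, adjusted p = 0.462, and log2 fold change 0.47 ± 0.26, adjusted p = 0.186). Of 11 mechanosensitive channel genes 5 were called lower and 0 higher, with a median of -0.28 that was 0.30 with library size alone. That scaling called 5 higher and 1 lower, and TMM without fl/fl-MI 2 called 2 higher and 5 lower. Trpv4, a cation channel, fell from 12.5–17.7 to 6.24–9.34 CPM (log2 fold change -0.96 ± 0.18, adjusted p = 0.0045), Trpm4 by 0.84 and Trpm7 by 0.57 on the log2 scale, and Piezo1 as given above.

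Immediate early genes are induced within minutes by growth and stress signals, and many encode transcription factors. As a list they were high in fl/fl-MI 1, fl/fl-MI 2 and CKO-MI 1, but very unevenly so. In CKO-MI 2 the list median, as the log2 difference from the sham mean, was at the sham level (0.18, against -0.34 to 0.41 in sham). Of 18 members 12 were called higher and 0 lower (median 1.84), and 7 were called higher with length taken out. Egr2 measured 1.04, 1.42, 1.54 and 1.61 CPM in sham and 15.1, 21.7, 13.5 and 5.07 CPM in MI libraries (log2 fold change 3.22 ± 0.42, adjusted p = 0.00106). Myc measured 4.16, 3.99, 5.23 and 4.72 and 17.1, 38.4, 17.5 and 10.2 CPM (log2 fold change 2.12 ± 0.37, adjusted p = 0.00355). Fos (log2 fold change 3.00 ± 1.02, adjusted p = 0.0484) and Egr1 (2.52) were called in 3 and 2 of the 8 fits with 1 library left out. Egr3 rose by 2.48, and Ier3 was even within groups, 17.4–19.6 CPM in sham and 36.7–41.6 CPM in MI (log2 fold change 1.07 ± 0.09, adjusted p = 0.000323). The library labelled fl/fl-MI 2 was the highest MI library for 17 of the 18 members and CKO-MI 2 the lowest for 17, and without fl/fl-MI 2 the median of the list was 1.08 with 12 members higher again.

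Of 15 heat shock proteins 8 were called higher and 0 lower (median 0.73), and CKO-MI 1 was the highest MI library for 14 of them. Without fl/fl-MI 2 11 were called higher. Hsp90aa1, the inducible chaperone, measured 93.7, 80.4, 75.2 and 88.2 CPM in sham and 322, 192, 418 and 237 CPM in MI libraries (log2 fold change 1.78 ± 0.24, adjusted p = 0.00125). Hspb1, a small heat shock protein, rose from 97.3–123 to 194–352 CPM (log2 fold change 1.26 ± 0.18, adjusted p = 0.00162), Hsph1 by 1.71, and the near-identical Hspa1a and Hspa1b, whose reads cannot be fully separated, by 1.85 and 1.66 on the log2 scale. Cryab, Hspb6 and Hspe1 were not called. Of 16 integrated stress response genes 6 were higher and 1, Pck2, lower (median 0.18). The rises were in proline and folate enzymes, Pycr1 (log2 fold change 1.98 ± 0.43, adjusted p = 0.00891), Aldh18a1 (1.17) and the mitochondrial Mthfd2 (log2 fold change 1.33 ± 0.24, adjusted p = 0.00397), and in Atf3 (1.86, called in 4 of 8 fits with 1 library left out), Phgdh (0.90) and Sesn2 (0.70), whereas Atf4, Ddit3, Trib3 and Asns were not called. Pck2 fell from 25–29.2 to 8.99–18.8 CPM (log2 fold change -0.95 ± 0.21, adjusted p = 0.00947). Of 12 genes of muscle ubiquitin ligases and mitophagy 5 were higher and 1, Map1lc3a (-0.99), lower (median 0.17). Fbxo32 and Trim63, the ligases of muscle atrophy, rose from 31.3–51.8 to 75.8–115 CPM (log2 fold change 1.22 ± 0.17, adjusted p = 0.00156) and from 40–52 to 86.3–135 CPM (log2 fold change 1.21 ± 0.17, adjusted p = 0.00158).

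The immune lists moved in different directions. Interferon response genes fell in part, with 11 of 24 called lower and 0 higher (median -0.65). With library size alone the median was -0.09, and 1 was higher and 6 were lower. Irf7, the regulator of the type I response, measured 61.7, 71.8, 51.6 and 47.1 CPM in sham and 32.6, 32, 16.8 and 14.3 CPM in MI libraries (log2 fold change -1.36 ± 0.15, adjusted p = 0.000664). Rsad2, an antiviral enzyme, fell from 39.1–50.2 to 11.1–15.1 CPM (log2 fold change -1.63 ± 0.14, adjusted p = 0.000324), Xaf1 from 23.2–28.4 to 8.05–12.1 CPM (log2 fold change -1.47 ± 0.15, adjusted p = 0.000541), and Irf9 by 0.99 on the log2 scale. The library labelled fl/fl-MI 1 was the highest MI library for 20 of the 24 members, and its list median was at the sham level (-0.04, against -0.71, -1.24 and -1.09 in the other MI libraries). The summed level of the list was 622 to 725 CPM in sham and 734, 457, 303 and 327 CPM in MI libraries. Among the MI libraries Esr1 was at the sham level in fl/fl-MI 1 alone, so infarction and the transgene cannot be told apart for this list.

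Of 17 antigen presentation genes 6 were called higher and 2 lower (median 0.15). The rises were the MHC class II genes of antigen-presenting cells, H2-Aa (28.1, 39.4, 33.9 and 27.2 CPM in sham and 248, 71.3, 50 and 57.5 CPM in MI; log2 fold change 1.53 ± 0.44, adjusted p = 0.0254), H2-Eb1 (log2 fold change 1.66 ± 0.47, adjusted p = 0.0245), H2-DMb1 (1.38), H2-Ab1 (1.54), H2-DMa (1.15) and Cd74 (1.38), and fl/fl-MI 1 was far above the other MI libraries. Class I genes and B2m were not called, and the class I transporter subunit Tap2 (log2 fold change -0.62 ± 0.13, adjusted p = 0.00848) and the immunoproteasome subunit Psmb9 (log2 fold change -0.95 ± 0.33, adjusted p = 0.0476) fell. Cd74, H2-DMb1, H2-DMa and Psmb9 were called in 3, 4, 2 and 2 of the 8 fits with 1 library left out, and Psmb9 was not called without fl/fl-MI 2 (-0.91 on the log2 scale). Within the fl/fl label 6 members were called higher, within CKO 5 were called lower. Of 17 complement genes 10 were higher and 0 lower (median 1.05), and without fl/fl-MI 2 13 were higher. C3, the central component, measured 214, 214, 121 and 126 CPM in sham and 1033, 537, 349 and 856 CPM in MI libraries (log2 fold change 2.08 ± 0.32, adjusted p = 0.00206). C1ra, of the classical pathway, rose from 17.3–33.6 to 43.8–93.8 CPM (log2 fold change 1.44 ± 0.20, adjusted p = 0.00154), while the macrophage-made C1qa, C1qb and C1qc were not called.

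Of 28 tested chemokines and cytokines 8 were called higher and 1 lower (median 0.82), and without fl/fl-MI 2 the counts were 15 and 1. Il33, an alarmin of stromal cells, rose from 5.85–7.63 to 15.6–29.2 CPM (log2 fold change 1.9 ± 0.21, adjusted p = 0.000689) and Ccl9 from 14.3–17.2 to 25.8–43.6 CPM (log2 fold change 1.24 ± 0.16, adjusted p = 0.00103). Il6, at a few reads per sham library, rose from 0.136–0.272 to 0.69–7.64 CPM (log2 fold change 3.58 ± 0.70, adjusted p = 0.00558). Cxcl12, the stromal ligand of Cxcr4, fell from 279–391 to 69–178 CPM (log2 fold change -1.74 ± 0.28, adjusted p = 0.00239). Ccl2, Il1b and Ccr2 were not called, and Tnf was below the filter. Of 13 macrophage markers 2 were called higher and 0 lower (median 0.58), and 5 were called higher without fl/fl-MI 2 and 9 with library size alone. Adgre1, which encodes F4/80, measured 12.1, 14.6, 13.1 and 13.8 CPM in sham and 38.5, 31.1, 18.5 and 31.9 CPM in MI libraries (log2 fold change 1.14 ± 0.20, adjusted p = 0.00353), and Lyz2 was called with overlapping groups (log2 fold change 0.79 ± 0.24, adjusted p = 0.0331) and in 4 of the 8 fits with 1 library left out. The summed level of these markers was 507 to 599 CPM in sham and 483 to 1236 CPM in MI libraries, and CKO-MI 1 was the lowest MI library for 12 of the 13. Of 17 genes of cathepsins and lysosome 9 were higher and 0 lower (median 0.58), among them Lamp2 (log2 fold change 0.94 ± 0.10, adjusted p = 0.000666), Ctsk (1.57) and Ctss (0.97), and without fl/fl-MI 2 12 were higher. Of lymphocyte, neutrophil and mast cell markers 4, 5 and 3 passed the filter and 0 were called. Their summed levels overlapped between the groups, 11 to 16.9 against 8.75 to 17.1 CPM, 10.8 to 16.5 against 6.31 to 15.4 CPM and 6.64 to 12.7 against 6.82 to 17.3 CPM in sham and MI, and Cd3e, Cd4 and Ly6g were below the filter.

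Of 13 tested genes of the insulin-like growth factor axis 5 were called higher and 0 lower (median 0.76), or 7 and 1 without fl/fl-MI 2. The binding protein Igfbp6 rose from 19.5–23.8 to 50.6–87.2 CPM (log2 fold change 1.53 ± 0.19, adjusted p = 0.000924), the clearance receptor Igf2r by 1.02, the insulin receptor Insr by 0.74 and its substrate Irs2 by 2.24 on the log2 scale, and Igf1 was not called. Of 13 renin-angiotensin and adrenergic genes 3 were higher and 3 lower (median 0.00), or 5 and 1 with library size alone. Ace, which forms angiotensin II, measured 76.4, 81.3, 47.6 and 80.5 CPM in sham and 260.1, 79.7, 175 and 285 CPM in MI libraries (log2 fold change 1.48 ± 0.39, adjusted p = 0.0181), and its groups overlapped through fl/fl-MI 2. The angiotensin receptor Agtr1a (log2 fold change -1.09 ± 0.19, adjusted p = 0.0036) fell. The muscarinic receptor Chrm2 (log2 fold change 1.5 ± 0.27, adjusted p = 0.00392) and the beta 1 adrenergic receptor Adrb1 (0.98) rose, and the call of Adrb1 held in 4 of the 8 fits with 1 library left out. Of 21 antioxidant genes 7 were higher and 3 lower (median 0.28), with rises in Txnrd1 (log2 fold change 1.22 ± 0.15, adjusted p = 0.000858), Gpx3 (1.62) and Hmox1 (0.71) and falls in Sod1 (log2 fold change -0.97 ± 0.21, adjusted p = 0.00782), Prdx5 (-1.09) and Gpx4 (-0.76). With library size alone this list had 16 higher and 1 lower (median 0.82), and the calls of Sod1 and Gpx4 were lost. Of 15 circadian clock genes 1, Bhlhe41 (log2 fold change 1.42 ± 0.22, adjusted p = 0.00206), was higher and 0 lower (median 0.15), and CKO-MI 2 was the lowest MI library for 10 of them. Of 15 tested cell cycle genes 0 were called with edgeR (median 0.24), and 4 were called higher without fl/fl-MI 2 and 10 with library size alone.

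The remaining marker lists checked for other tissue in the samples. Of 7 atrial markers 2, Nppa and Dkk3, were called higher, but in fl/fl-MI 2 all 7 were at their highest MI level. Without that library 2 were called higher and 2 lower, and the median of the list went from 2.98 to -0.79. Bmp10, a growth factor made in the right atrium, measured 18.8, 16.9, 13 and 15.8 CPM in sham and 10.3, 3834, 12.6 and 11.2 CPM in MI libraries and was not called (log2 fold change 3.25 ± 2.61, adjusted p = 0.352), and Sln, the atrial regulator of the calcium pump, measured 1.04, 1.25, 1.24 and 4.62 and 0.897, 309.7, 1.24 and 1.4 CPM (log2 fold change 2.98 ± 3.09, adjusted p = 0.472). The summed level of the atrial list was 171 to 653 CPM in sham and 2661 to 21210 CPM in MI libraries. Nppa, also a wall stress gene, weighs heavily in this sum, with 2520.3 of the 2661 CPM in CKO-MI 2. The list median, as the log2 difference from the sham mean, was -0.62 in fl/fl-MI 1, -0.40 in CKO-MI 1 and -0.51 in CKO-MI 2. In the sham libraries it was -0.40 to 1.33. The part of atrial tissue in the values of fl/fl-MI 2 was not tested. Of 5 tested erythroid markers the hemoglobin genes Hba-a1 (log2 fold change 1.34 ± 0.42, adjusted p = 0.0351) and Hba-a2 (log2 fold change 1.34 ± 0.39, adjusted p = 0.0267), near-identical copies whose counts cannot be fully separated, were called higher with overlapping groups and in 2 of the 8 fits with 1 library left out, and the summed level of the list was 79.8 to 552 CPM in sham and 272 to 753 CPM in MI libraries. Without fl/fl-MI 2 all 5 erythroid markers were called higher. Of 7 adipocyte markers 1, Fabp4, was lower. Of 4 tested cartilage and bone markers 1, Comp, was higher, or 3 without fl/fl-MI 2, and Acan and Col2a1 were below the filter. Of 5 tested markers of nerve and glia 2 were lower, or 4 without fl/fl-MI 2, among them the glial gene Sox10 (log2 fold change -2.36 ± 0.48, adjusted p = 0.0068), and the summed level was 19.6 to 26.5 CPM in sham and 7.24 to 29.1 CPM in MI libraries. Of 2 tested liver markers 0 and of 2 tested skeletal muscle markers 1, Ckm, were called, and of the lung markers 0 passed the filter.

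The 4 MI libraries differed from each other in a way that followed gene groups. The library labelled fl/fl-MI 2 was the lowest MI library for 4841 and the highest for 4696 of the 14028 genes tested, where the other 3 were lowest for 2799 to 3375 and highest for 2936 to 3448. The median level of the collagens, as the log2 difference from the mean of the sham libraries, was 1.93 in fl/fl-MI 1, 0.39 in fl/fl-MI 2, 1.28 in CKO-MI 1 and 1.91 in CKO-MI 2. For the wall stress genes the medians were 2.30, 0.50, 3.09 and 2.17 in the same order. In contrast, the immediate early genes had 1.51, 3.05, 1.24 and 0.18. Endothelial markers were low in all 4 (-1.94, -1.41, -1.32 and -1.5), as were the mitochondrially encoded proteins (-1.86, -1.48, -1.35 and -1.78). Macrophage markers, complement and antigen presentation were lowest in CKO-MI 1, with medians of -0.23, 0.21 and -0.40, and highest in fl/fl-MI 1, with 0.85, 1.34 and 0.91. With 2 libraries a label, such differences cannot be assigned to the label. The libraries fl/fl-MI 1 and fl/fl-MI 2 share a label, but differed in Esr1 (7.75 and 331 CPM), which went against the label in fl/fl-MI 2. 

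Within each label the lists kept their direction for the groups with the largest changes. Endothelial markers had median log2 fold changes of -1.62 in fl/fl and -1.46 in CKO, mitochondrially encoded proteins -1.66 and -1.56, nuclear respiratory chain genes -0.84 and -0.77, collagens 1.5 and 1.44, matrix glycoproteins 1.66 and 1.73, and wall stress genes 1.82 and 2.33. All genes together had medians of 0.05 and 0.01. Immediate early genes stood at 2.80 in fl/fl, where 15 of 18 were called higher, and at 0.68 in CKO, where 3 were. Interferon response genes stood at -0.42 and -1.10, with 6 and 14 of 24 called lower. Heat shock proteins stood at 0.42 and 1.04, with 2 and 7 of 15 called higher. Antigen presentation (0.40 and -0.18), fatty acid genes (-0.32 and 0.09) and adult sarcomere genes (-0.13 and 0.48) had medians of opposite sign. The interaction test with edgeR called none of these genes, so none of these differences between labels passed that test of the difference. Esr1 went against the label in fl/fl-MI 2 and in both CKO-Sham libraries, so a difference between labels need not be one between genotypes.

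**Figure D5:**
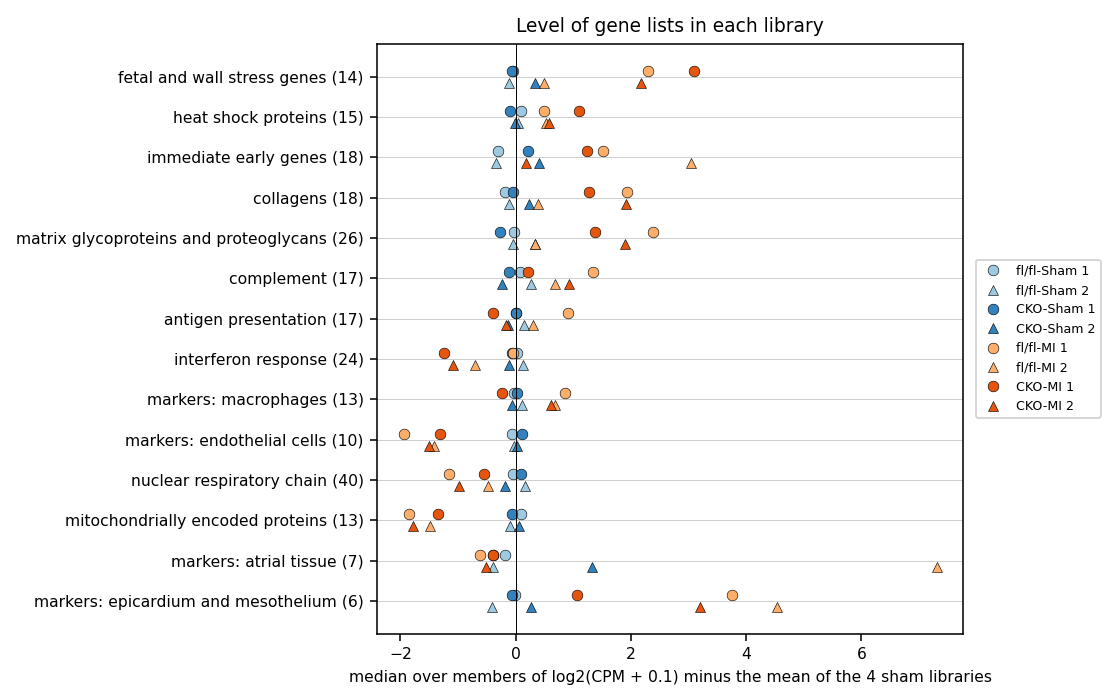
Median over the members of 14 lists of the log2 level in each library, log2(CPM + 0.1) minus the mean of the 4 sham libraries, with blue symbols for sham and orange for MI. Endothelial and mitochondrially encoded genes are low in all 4 MI libraries (-1.94 to -1.32), the atrial markers reach 7.31 in fl/fl-MI 2 and lie between -0.62 and -0.40 in the other 3, and the matrix and collagen lists are lowest in the same library.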

How the data were processed

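The series held 8 mouse heart RNA-seq libraries in 4 groups of 2. According to the labels RNA was taken from myocardium with Trizol, and poly(A) RNA went into strand-marking paired-end libraries. Reads were trimmed by the authors with cutadapt 1.9 and checked with FastQC. The aligner, the counter, the annotation release and whether counting used strand are not given in the sources used here, so overlapping genes and near-identical copies are uncertain.

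The deposited gene table held expected counts, which the authors gave as whole numbers for 33249 genes, and FPKM, the same values per length and sequencing depth as the authors computed them. Among low values multiples of 4 were overfull (on average 1106 genes at a count of 4 against 326 at 5), so a count is not a read, and dividing by 4 was tried as an alternative. Samples were matched to columns by the column names that the labels give.

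The 14028 genes whose FPKM averaged 0.5 or more were tested with edgeR 4.0.16 (glmQLFit and glmQLFTest, R 4.3.3) on the counts as deposited, with TMM scaling and the genotype label as a covariate, and p-values were adjusted by Benjamini-Hochberg over all genes tested. Fits with 1 mean per group gave the contrasts within each label and their difference, and share 1 estimate of the spread. Alternatives used RLE factors, library size alone, removal of mitochondrially encoded genes, limma 3.58.1 on log2(FPKM + 1) or log2(FPKM + 0.1), a test without filter, a stricter FPKM minimum of 5, DESeq2 1.42.0, no genotype label, a replicate block, counts divided by 4, and each library left out. A length correction (each library's lowess trend of log2 counts with transcript length as an offset) was chosen after seeing the data. CPM values use TMM-scaled library sizes, and CPM within a library compares no 2 genes. The mitochondrial share was compared with an exact permutation test in SciPy 1.17.1. Code was tested on simulated data. Replicate numbers did not pair libraries: deviations of same-numbered libraries from their group means correlated between -0.157 and 0.062.

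Named genes were, in each direction, the 12 largest changes among called genes that averaged an FPKM of 2 or more, with non-overlapping groups and a symbol other than Gm numbers and Rik names, then up to 4 members of each list with the smallest p, members called against the direction of their list, and a set of genes that the study measured or that mark remodelling. Other members are named to account for a list. Some genes that met these rules are not reported here, though the list counts include them. Members and lists were chosen with earlier results of these data known.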

Additional observations from a re-analysis of the deposited data

Results flagged for a closer look

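Over the 4 libraries of each surgery, 564 checks of the named genes, the summed lists and the mitochondrial share asked whether the highest or the lowest library stood apart from its nearest neighbour by more than 0.83 of the range, and 36 did. Chance alone gives about 1 in 20, so single entries carry little weight. All values are CPM. CKO-Sham 1 was the highest sham library for Bmp6 (76.2 against 61.1 to 62.9 in the others). It was the lowest for Ace (47.6 against 76.4 to 81.3 in the others) and Cxcl12 (279 against 385 to 391). CKO-Sham 2 was the highest sham library for Col8a1 (44 against 23.9 to 24.2 in the others), Comp (30.6 against 9.54 to 10.4), Dkk3 (38.9 against 12 to 14.8), Fmod (17.9 against 2.37 to 3.31), Fstl1 (137 against 104 to 107), Sln (4.62 against 1.04 to 1.25), Thbs4 (33.6 against 3.76 to 7.61), the summed genes of the list Wnt pathway (125 against 86.1 to 89.3) and the summed markers of cartilage and bone (42.6 against 16.6 to 19.1). It was the lowest for Slc25a4 (2719 against 3196 to 3271 in the others). fl/fl-Sham 1 was the highest sham library for the summed genes of the list integrated stress response (248 against 244 to 245 in the others). It was the lowest for Sox10 (1.81 against 4.29 to 4.41 in the others). fl/fl-MI 2 was the highest MI library for Bmp10 (3834 against 10.3 to 12.6 in the others), Dkk3 (1081 against 105 to 264), Gpx3 (1557 against 342 to 518), Sln (309.7 against 0.897 to 1.4), the summed markers of atrial tissue (21210.0 against 2661 to 4701) and the summed markers of nerve and glia (29.1 against 7.24 to 10.7). It was the lowest for Rsad2 (11.1 against 14.6 to 15.1 in the others). fl/fl-MI 1 was the highest MI library for Cd74 (475 against 107 to 155 in the others), Ctsk (25.7 against 13.1 to 14.7), H2-Aa (248 against 50 to 71.3), H2-Ab1 (217 against 43.1 to 61), H2-DMa (15.6 against 4.34 to 5.83), H2-Eb1 (267 against 50.3 to 72.1), Hba-a1 (221 against 73.1 to 98.2) and Lum (286 against 131 to 141). CKO-MI 2 was the highest MI library for Mmp3 (106 against 19.7 to 25.2 in the others). It was the lowest for Cyp1a1 (0.474 against 1.36 to 1.44 in the others). CKO-MI 1 was the highest MI library for Fabp4 (379 against 269.7 to 282 in the others), Jph2 (403 against 257 to 268), Tnnc1 (862 against 538 to 565) and the summed genes of the list muscle ubiquitin ligases and mitophagy (2053 against 1559 to 1584). The library labelled fl/fl-MI 2 holds 7 of these entries, fewer than CKO-Sham 2 or fl/fl-MI 1. Genes of 1 list vary together, so their entries are not independent. No cause was tested.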

How the results depend on the processing

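The number of genes changed by MI was within 1.5 times the reported 5494 with every scaling, tool and covariate tried. With each library left out it was lowest without fl/fl-Sham 2 (3890) and highest without fl/fl-MI 2 (6613). With a stricter FPKM minimum of 5 it was 2797 of 5524 genes (1464 higher, 1333 lower), where fewer genes were tested, and 2209 at an unadjusted p under 0.05 with a 2-fold change (1081 higher, 1128 lower), which demands a larger change. The split by direction moved with the scaling: library size alone gave 7349 higher and 794 lower, limma on log2(FPKM + 1) 7167 and 852, and on log2(FPKM + 0.1) 7241 and 845. RLE factors (2879 and 2579), removal of mitochondrially encoded genes (2783 and 2664) and counts divided by 4 (2994 and 2534) left it close to the reported one. Within labels, fl/fl gave 5841 genes with library size alone, 5255 with limma, 4038 with DESeq2 and 1602 at the stricter filter, and CKO gave 5512 with library size alone and 2105 at the stricter filter. With each library left out the counts ranged from 119 to 4180 in fl/fl and from 25 to 5793 in CKO. The interaction called 1 gene without a filter and 131 with DESeq2, and between 0 and 751 genes with each library left out. The cause of these differences was not tested.

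Replicate numbers are names only here. With the replicate block the counts were 5062 genes in all (2717 higher, 2345 lower), 1689 in fl/fl, 2677 in CKO and 0 for the interaction, and 13 of the 224 called genes named were not called.

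Among named genes, 31 of 224 calls were lost and 2 reversed in sign with library size alone, and 15 were lost with the length correction. The genes that reversed were Piezo1 (0.14 with library size alone, 0.13 and 0.14 with limma at pseudocounts of 1 and 0.1), Gapdh (0.02, 0.01 and 0.01) and, of those not called, Acta1 (0.40, 0.05 and 0.03, and 0.23 without the genotype label), Cacna1c (0.24, 0.23 and 0.25) and Myh6 (0.12, 0.01 and 0.01). With each library left out the log2 fold change ranged from -0.78 to 0.43 for Acta1, from -0.14 to 0.32 for Acta2, from -0.48 to 5.20 for Bmp10, from -0.33 to 0.80 for Kcnd2 and from -0.83 to 5.32 for Sln. The sign of Bmp10, Kcnd2 and Sln turned without fl/fl-MI 2. The difference of the mitochondrial share ranged from -23.87 to -22.43 percentage points with each library left out, and was -16.71 on FPKM. With 2 libraries a group, intervals and tests cover the spread between these libraries, and genes at a few reads per library, such as Il6 and Upk1b in sham, have imprecise fold changes.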

Other observations

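On the TMM scale long non-coding RNAs leaned the other way from protein-coding genes. Of 728 long non-coding RNAs tested 192 were called lower and 52 higher (33.5% called), with a median log2 fold change of -0.38. Of 12250 protein-coding genes 2161 were lower and 2852 higher (40.9% called), with a median of 0.07, and of 808 pseudogenes 100 were lower and 74 higher (21.5% called), with a median of -0.18. The remaining kinds of transcript (242 tested) had 55 lower and 7 higher. This split was not repeated with library size alone or with length taken out.

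A few of the genes with large changes after MI differed between the labels among the sham libraries, with 2 libraries a label and no test. Slc15a2 was 45.9 and 34.3 CPM in fl/fl-Sham and 2.21 and 1.76 CPM in CKO-Sham, Cyp1a1 was 5.99 and 8.02 CPM against 46.1 and 52.9 CPM, and Postn was 74.6 and 70.2 CPM against 14.9 and 19.2 CPM.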
